A study of Bos taurus with 12 samples.

Results

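The genes described here are 57 transporters and transporter subunits of the solute carrier (SLC) families 1, 3, 6, 7, 36, 38 and 43, chosen by symbol alone from 17983 gene rows of the count table, without SLC7A11. Most carry amino acids across the plasma or lysosomal membrane. Some do not, since family 6 also holds monoamine, creatine and taurine carriers, family 3 holds glycoprotein partners that carry nothing by themselves, and SLC43A3 carries purine bases. A count in at least 1 library was found for 54 members, and 38 had enough counts to be tested, whereas 19 did not.

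The measured material was bovine cumulus-oocyte complexes, each an oocyte inside its shell of cumulus granulosa cells, matured in vitro. Nanoplastics samples (n = 6) were matured with polystyrene particles 50 nm across at 3 µg/mL, and Control samples (n = 6) in medium without them. Each sample pooled 50 complexes, and polyadenylated RNA was sequenced. The design text names 3 batches of bovine material without assigning samples to them, so batch and any difference between libraries cannot be told apart.

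The oocyte of a growing follicle takes up several amino acids poorly by itself and receives them through gap junctions from the cumulus cells that surround it. In the mouse, cumulus cells carry alanine and histidine for the oocyte through Slc38a3, and the glycine carrier Slc6a9 of the oocyte serves cell volume control. Heteromeric carriers consist of a heavy chain, SLC3A2 or SLC3A1, that brings a light chain of family 7 to the membrane. Lack of amino acids and other stresses act through translation to raise the transcription factor ATF4, which is known to activate genes of amino acid synthesis and several transporter genes.

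Total counts ran from 14167578 to 18684140 in Nanoplastics and from 15873865 to 20008464 in Control libraries. All 12 oocyte markers and all 12 granulosa and cumulus markers had counts. Levels are given in CPM, which are counts scaled to the library total after its adjustment by TMM, a scaling between libraries. The summed oocyte markers ran from 273 to 436 CPM in Nanoplastics and from 311 to 469 CPM in Control libraries. The summed granulosa and cumulus markers ran from 9609 to 10872 CPM in Nanoplastics and from 9159 to 10743 CPM in Control libraries. The 10 theca and stromal markers also had counts, summing to 386 to 644 CPM in Nanoplastics and 361 to 553 CPM in Control libraries. The 8 leukocyte markers summed to 6.49 to 15.8 CPM in Nanoplastics and 5.66 to 9.46 CPM in Control libraries, and the 6 endothelial markers to 38.9 to 52.7 CPM in Nanoplastics and 37.5 to 48.7 CPM in Control libraries. In these bulk libraries fewer cells of a type and less RNA per cell cannot be told apart.

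The summed level of the 57 transporters had a lowest value of 2420, a median of 2490 and a highest value of 2603 CPM in Nanoplastics libraries, and 2384, 2490 and 2557 CPM in Control libraries. The groups overlap. CPM values are not divided by transcript length, for which no table was at hand, so levels are compared here between libraries and not between genes.

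**Figure D1:**
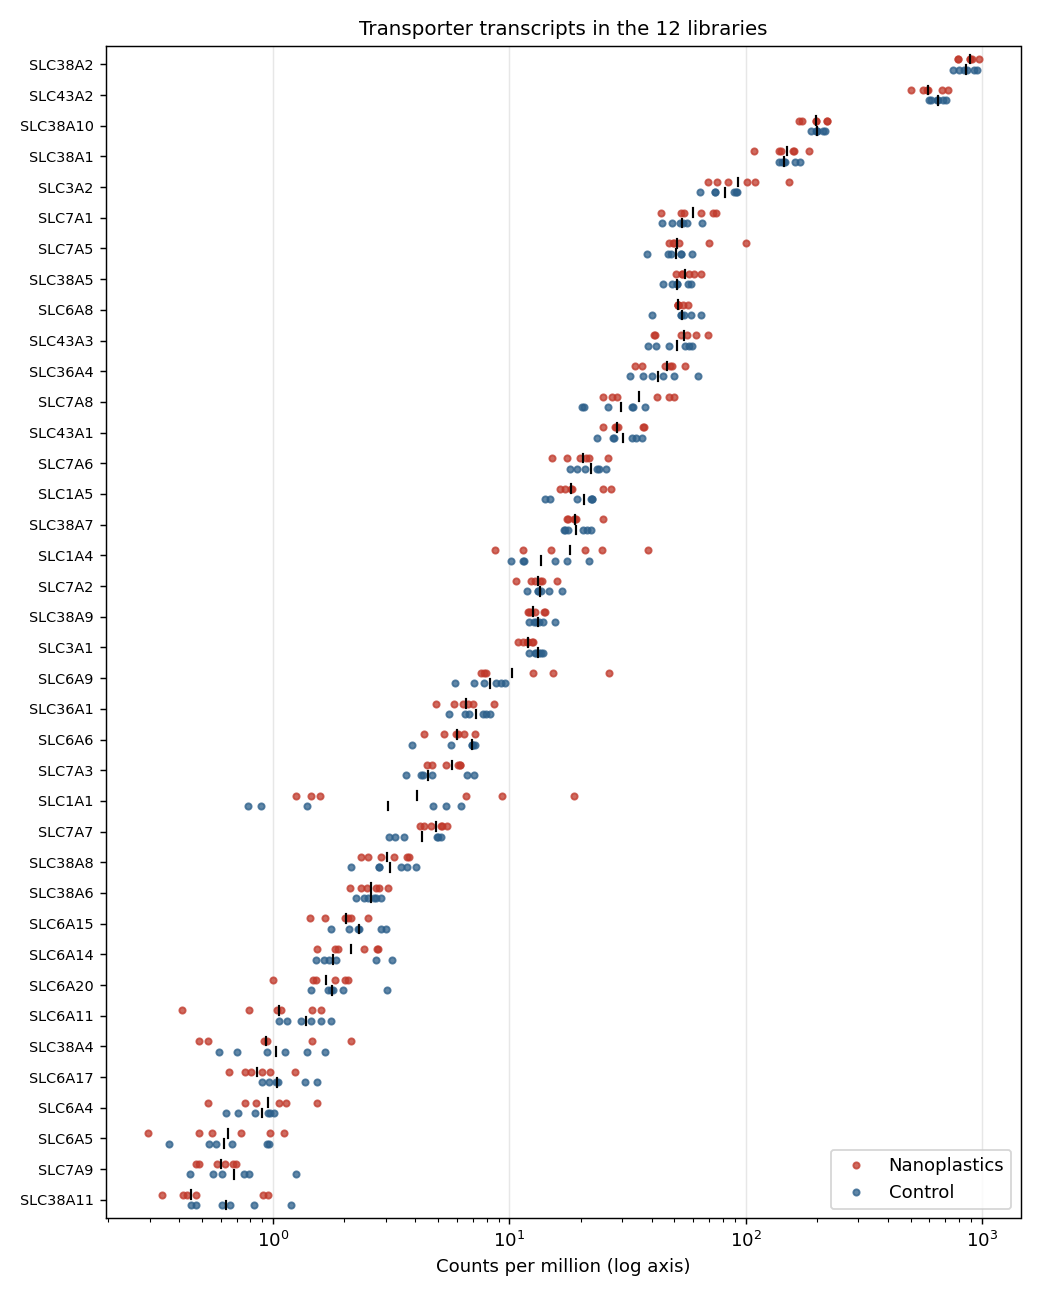
Level of each of the 38 tested transporters in every library, in CPM on a log axis. Each gene has Nanoplastics libraries (red, upper row) and Control libraries (blue, lower row), and black ticks mark the group medians. The groups overlap for all 38 genes, and SLC1A1 spreads over the widest range, with 18.8 CPM in 1 Nanoplastics library and 0.781 CPM in 1 Control library.

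SLC38A2, a sodium-coupled carrier of alanine, glutamine and other small neutral amino acids, is known in other cells as a transporter that amino acid shortage induces. It had 795, 894 and 973 CPM (lowest, median, highest) in Nanoplastics libraries and 758, 856 and 959 CPM in Control libraries. The highest library exceeded the lowest by only 1.28-fold over all 12, with an SD of 0.12 on the log2 CPM scale. Only SLC3A1, the heavy chain of the cystine carrier, and SLC38A9, a lysosomal arginine sensor, varied less among members with a mean of at least 1 CPM, with SDs of 0.10 and 0.11. Across all tested genes the median SD was 0.18, and across the 38 members 0.29.

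SLC1A1, the neuronal-type glutamate and aspartate carrier that also takes up cysteine, varied most. Its values were 18.8, 9.33, 1.25, 1.58, 6.57 and 1.45 CPM in Nanoplastics 1 to 6, and 0.891, 4.73, 5.38, 1.39, 0.781 and 6.22 CPM in Control 1 to 6. Nanoplastics 1, 2 and 5 and Control 2, 3 and 6 were high and the other libraries of each group low, so that the spread lay within both groups. The range was 21.1-fold, and its SD of 1.44 on the log2 CPM scale was above that of 99.9% of tested genes. SLC1A4, a carrier of alanine, serine, cysteine and threonine, followed with an SD of 0.62 and a range of 4.42-fold, and SLC38A4 with 0.60 and 3.76-fold at a level near 1 CPM.

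The comparison of particle-treated with untreated complexes asked which transporter transcripts differed after maturation with polystyrene nanoplastics. None of the 38 tested members passed, and neither did any other gene. With edgeR's quasi-likelihood test and Benjamini-Hochberg adjustment, 0 of 38 members passed an adjusted p of 0.05, against a background of 0% of 12311 genes. At an unadjusted p under 0.05 there was 1 member, against 2.10% of all genes (259). By DESeq2 and by limma-voom 0 members and 0 genes passed as well. The log2 fold change was positive for 20 members and negative for 18, with a median of 0.01, against 50.5% positive and a median of 0.00133 over all genes. The groups overlapped for every member, against 0.0731% of all genes whose groups did not.

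That member was SLC6A9, the glycine carrier. It had 26.4, 15.3, 7.97, 7.55, 12.6 and 7.78 CPM in Nanoplastics 1 to 6, and 5.87, 8.80, 9.17, 7.81, 7.09 and 9.59 CPM in Control 1 to 6. Nanoplastics 1, 2 and 5 lay above every Control library, while Nanoplastics 3, 4 and 6 lay below the Control median. The log2 fold change was 0.68 (SE 0.28; 95% interval 0.09 to 1.27), with an adjusted p of 0.999 in edgeR's test. Its unadjusted edgeR p was 0.0257. Above the Control median were 3 of 6 Nanoplastics libraries. Without Nanoplastics 1 it was 0.34. The authors' deposited table of this contrast lists SLC6A9 at a log2 fold change of 0.68, with a p of 0.0104 and an adjusted p of 0.999928. It is the only member under 0.05 among the 31 in the authors' deposited table, against 234 of all 11416 genes listed there. On the same contrast 0 markers of other cells passed by edgeR, but of 8 tested theca and stromal markers 7 had positive values (median log2 fold change 0.45) and 4 an unadjusted p under 0.05, and the 2 tested red blood cell markers had a median of 1.40. Their part in the fold changes of SLC6A9 and the other transporters was not tested.

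The other members of small p also failed the adjustment, each with an adjusted p of 0.999 in edgeR's test. The heavy chain SLC3A1 had 10.9, 11.97 and 12.6 CPM in Nanoplastics libraries and 12.2, 13.2 and 13.9 CPM in Control libraries (lowest, median, highest). Its log2 fold change was −0.15 (SE 0.08; 95% interval −0.31 to 0.02), and 0 of 6 Nanoplastics libraries were above the Control median. SLC7A8, a light chain that exchanges neutral amino acids, had 24.9, 35.3 and 49.7 CPM in Nanoplastics and 20.3, 29.6 and 37.7 CPM in Control libraries. Its log2 fold change was 0.36 (SE 0.20; −0.06 to 0.78). The value for the heavy chain SLC3A2 was 0.29 (SE 0.16; −0.06 to 0.63), that for the light chain SLC7A5 was 0.30 (SE 0.17; −0.06 to 0.66), and that for SLC38A5, a carrier of glutamine and other neutral amino acids, was 0.13 (SE 0.08; −0.04 to 0.29). Without Nanoplastics 1 these were 0.12 for SLC3A2 and 0.11 for SLC7A5.

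Values for the other members of highest level were as follows. SLC38A2 differed by 0.03 on the log2 scale (95% interval −0.13 to 0.18), and SLC43A2, a facilitative carrier of branched-chain and aromatic amino acids, had −0.10 (−0.28 to 0.08) at 500, 590 and 721 CPM in Nanoplastics and 596, 651 and 708 CPM in Control libraries. SLC38A10 had −0.05 (−0.20 to 0.11). SLC38A1, a glutamine carrier, had −0.02 (−0.24 to 0.20), and SLC6A8, the creatine carrier, had −0.03 (−0.21 to 0.16). SLC7A1, which carries arginine and lysine, had 0.18 (−0.09 to 0.44) and SLC43A3 had 0.11 (−0.19 to 0.40). The 95% interval lay within 1.5-fold in either direction for 23 of 38 members, against 83.3% of all genes. Intervals were widest for SLC1A1, at 1.01 (−0.41 to 2.43), and for SLC38A4, at −0.01 (−0.77 to 0.75). Without Nanoplastics 1 the value was 0.31 for SLC1A1 and 0.14, against 0.44, for SLC1A4.

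The remaining tested members had log2 fold changes between −0.39 and 0.44, none of which passed. Among carriers of basic amino acids SLC7A2 had −0.08 and SLC7A3 0.11. Among partners and light chains SLC7A6 had −0.11, SLC7A7 0.21 and SLC7A9, the partner of SLC3A1, −0.31. The neutral amino acid exchangers SLC1A4 and SLC1A5 had 0.44 and 0.08, and SLC43A1, a facilitative carrier of branched-chain amino acids, 0.01. The proton-coupled carrier SLC36A1 had −0.12, and SLC36A4 had 0.01. In family 38, SLC38A6 had 0.01, the lysosomal SLC38A7 0.02, SLC38A8 −0.04, the lysosomal SLC38A9 −0.06 and SLC38A11 −0.25. In family 6, the taurine carrier SLC6A6 had −0.09, the neuronal glycine carrier SLC6A5 0.04, the GABA carrier SLC6A11 −0.39, the neutral amino acid carriers SLC6A14, SLC6A15 and SLC6A17 0.06, −0.27 and −0.35, the proline carrier SLC6A20 −0.23 and the serotonin carrier SLC6A4 0.18.

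**Figure D2:**
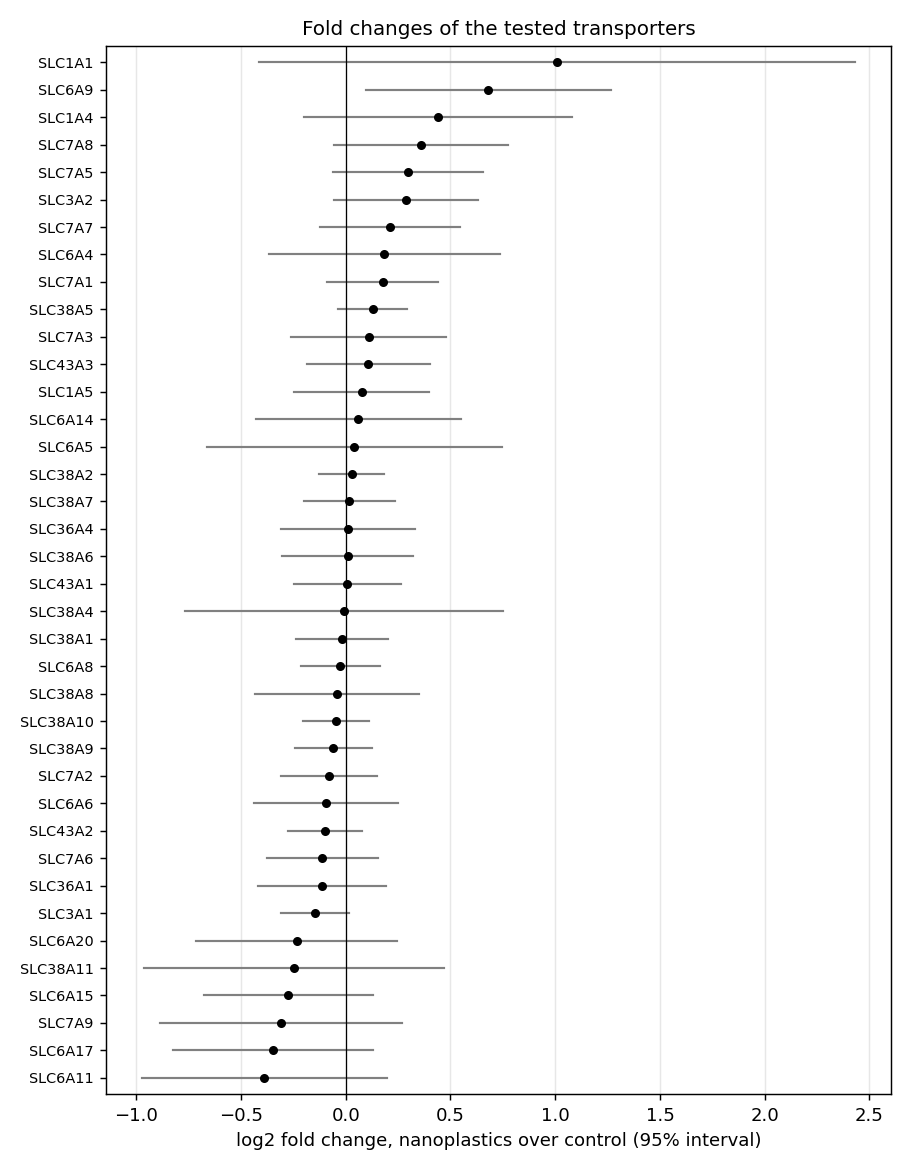
Log2 fold change, Nanoplastics over Control, of the 38 tested transporters (points) with 95% intervals of the edgeR fit (lines), ordered by value. The interval includes 0 for 37 members, and that of SLC6A9 runs from 0.09 to 1.27.

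Nanoplastics 1 was the library at an extreme most often. It was the highest of the 12 for 10 of 38 members, against 19.4% of all genes, and the lowest for 10, against 15.2%. SLC1A1, SLC1A4 and SLC3A2 were higher in Nanoplastics 1, 2 and 5 and in Control 2, 3 and 6 than in any other library.

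The second set of comparisons asked which members varied between libraries with the level of VEGFA, an oxygen-regulated growth factor gene, and with the mean log2 CPM of 31 genes that are not transporters. Those 31 were ATF4 itself and genes listed as its targets, called ATF4 targets here. Each slope comes from one edgeR fit over all genes with treatment as a term, so it describes variation within the treatment groups. Slopes are log2 changes of a transporter per unit of log2 CPM of the gradient. These gradients are measured in the same libraries as the transporters and share their depth and scaling.

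The ATF4 target mean ran from 4.68 to 5.82 in Nanoplastics and from 4.58 to 5.20 in Control libraries. The upper 6 libraries were Nanoplastics 1, 2 and 5 with Control 2, 3 and 6, at 5.14 to 5.82, and the lower 6 were Nanoplastics 3, 4 and 6 with Control 1, 4 and 5, at 4.58 to 4.83. Each run therefore held 3 libraries of either treatment. The cut was set at the middle of the 12 libraries, where the step was 0.31. Within the upper run a wider step parted Nanoplastics 1 (5.82) from the next library, Nanoplastics 2 (5.48). The runs are thus a split by rank and not at the widest gap. VEGFA was 9.18 to 10.99 in the upper and 6.76 to 8.92 in the lower run on the log2 CPM scale, so the ATF4 and the VEGFA gradients cannot be told apart in these libraries. Other genes moved with them. The 5 red blood cell markers summed to 28.2 to 354 CPM in the upper and 2.68 to 11.02 CPM in the lower run, with HBB at 0 counts throughout, and the theca and stromal markers to 452 to 644 CPM in the upper and 361 to 513 CPM in the lower run. Of 8 tested theca and stromal markers 4 had a positive slope past the threshold on the ATF4 target mean, and of 12 granulosa and cumulus markers 3, against 8.78% of all genes. Of 11 tested oocyte markers 3 had a negative slope past the threshold, against 4.59% of all genes, namely BMP15 (−0.57), DPPA3 (−0.54) and KPNA7 (−0.47). The other oocyte markers did not pass and went both ways. ZP3 (1.46), NLRP5 (1.23), GDF9 (0.53), ZAR1 (0.35) and ZP4 (0.22) had positive slopes, and MOS (−0.42), ZP2 (−0.29) and OOEP (−0.25) negative ones. The part of these markers in the slopes of the transporters was not tested.

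On the ATF4 target gradient 8 of 38 members rose and 1 fell at an adjusted p under 0.05, against 8.78% of all genes that rose, 4.59% that fell and 13.4% in either direction. The median slope of the 38 was 0.01, against −0.01 over all genes, so the members did not move as a block. Those that rose were the glutamate carrier SLC1A1, the alanine and serine carrier SLC1A4, the glycine carrier SLC6A9, the heavy chain SLC3A2, the leucine carrier SLC7A5, the neutral amino acid carrier SLC36A4, the glutamine carrier SLC38A1 and the arginine carrier SLC7A1. The light chain SLC7A6 fell.

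SLC1A1 had a slope of 3.75 (95% interval 3.25 to 4.26; adjusted p = 1.32e-07 in edgeR's test), the rank 2 of smallest p among all genes. It was 4.73 to 18.8 CPM in the upper run and 0.781 to 1.58 CPM in the lower run, without overlap. In Control libraries alone its slope was 6.56 (adjusted p = 0.0112 in edgeR's test), and it was 1 of only 2 genes called there (0.0171%). In Nanoplastics libraries alone the slope was 4.22 (adjusted p = 1.72e-06 by edgeR). The slope stayed between 3.69 and 4.05 with any 1 library left out.

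SLC1A4 had a slope of 1.55 (95% interval 1.24 to 1.86; adjusted p = 3.71e-06 by edgeR). Its levels were 38.7, 24.7, 15.04, 8.65, 20.9 and 11.4 CPM in Nanoplastics 1 to 6, and 11.4, 15.6, 21.7, 10.1, 11.6 and 17.5 CPM in Control 1 to 6. The upper and the lower run did not overlap. Its close relative SLC1A5, a glutamine carrier, had a slope of 0.31 (−0.09 to 0.71 by its 95% interval; adjusted p = 0.303 by edgeR), and whether the pair differs was not tested.

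SLC3A2 had a slope of 0.82 (0.64 to 1.00; adjusted p = 1.06e-05 by edgeR). Its levels were 153, 109, 84.0, 69.4, 101 and 75.8 CPM in Nanoplastics 1 to 6, and 74.5, 89.0, 91.6, 74.1, 64.1 and 91.4 CPM in Control 1 to 6, again without overlap between the runs. SLC6A9 had a slope of 1.37 (1.06 to 1.68; adjusted p = 1.21e-05 by edgeR). Its upper run lay at 8.80 to 26.4 CPM and its lower run at 5.87 to 7.97 CPM. In Control libraries alone the slopes of SLC1A4 (1.90, adjusted p = 0.169), SLC3A2 (0.93, 0.374) and SLC6A9 (1.18, 0.721) did not pass by edgeR. In Nanoplastics libraries alone they passed, with slopes of 2.02, 1.08 and 1.91 in that order.

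Among the remaining calls SLC36A4 passed in all 12 fits that left out 1 library, SLC7A5 and SLC38A1 in 11 and SLC7A1 in 8. SLC7A5 had a slope of 0.70 (0.40 to 1.00; adjusted p = 0.00355 by edgeR), with 100 CPM in Nanoplastics 1, 69.8 CPM in Nanoplastics 2 and 38.3 to 59.5 CPM in every other library. SLC36A4 had 0.64 (adjusted p = 0.00517), SLC38A1 0.41 (0.0122), SLC7A1 0.45 (0.0292) and SLC7A6 −0.44 (0.0466), all in edgeR's test. Without Nanoplastics 1, 5 members passed, against 4.15% of all genes, and they were SLC1A1, SLC1A4, SLC3A2, SLC6A9 and SLC36A4. SLC7A6 passed in only 2 of the 12 fits that left out 1 library.

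SLC38A2 had a slope of 0.09 (−0.12 to 0.29; adjusted p = 0.606 by edgeR), and its levels in the upper run (844 to 929 CPM) lay within those in the lower run (758 to 973 CPM). SLC38A5 had −0.09 (adjusted p = 0.620), SLC43A2 −0.24 (0.119), SLC38A10 −0.23 (0.0983) and SLC38A9 −0.04 (0.852), none of which passed in edgeR's test.

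**Figure D3:**
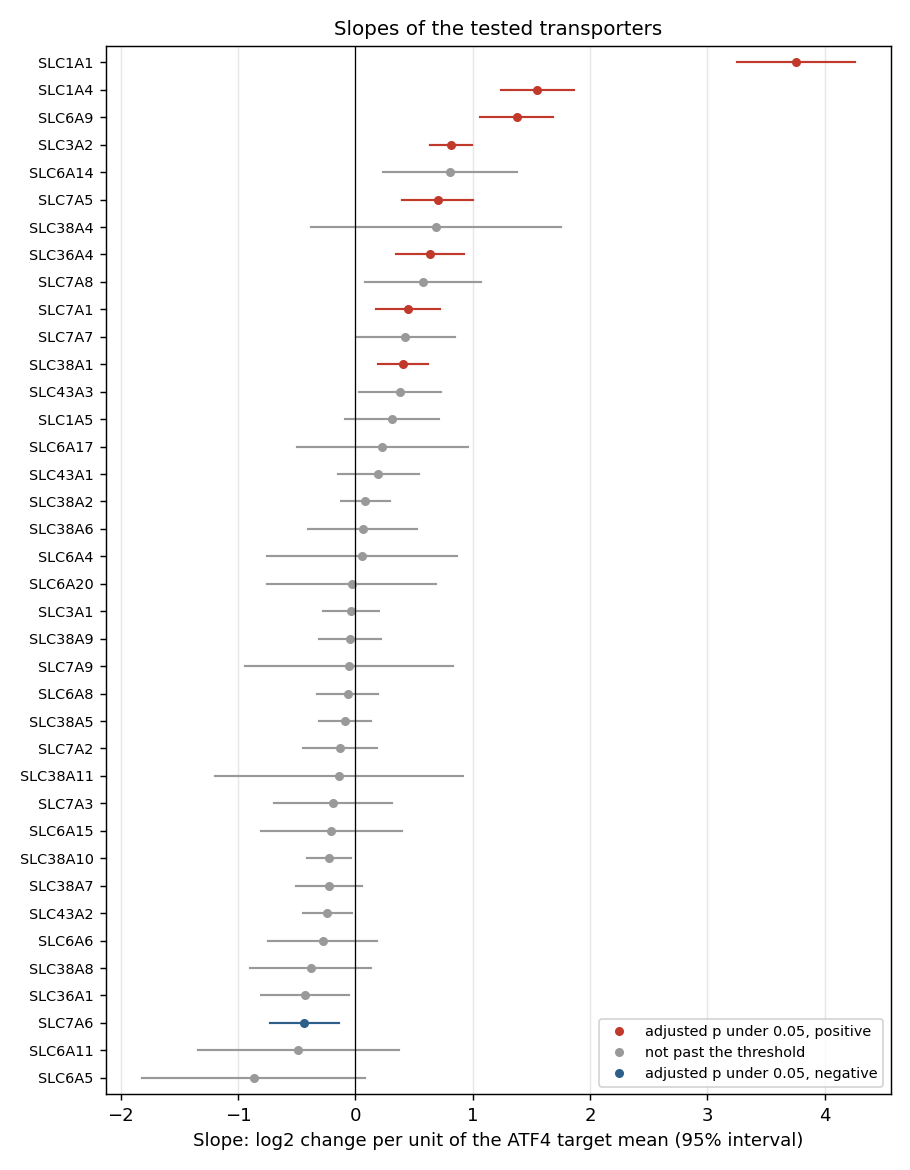
Slope of each of the 38 tested transporters on the mean log2 CPM of ATF4 target genes (points) with its 95% interval (lines), from the edgeR fit with treatment as a term. Red marks 8 positive and blue 1 negative slope past an adjusted p of 0.05, and SLC1A1 stands apart at 3.75.

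The relation was also taken within each run of 6, the upper and the lower. With the run as a further term, 5 members passed, against 0.399% of all genes (49 of 12280). They were SLC6A9 (slope 2.28, adjusted p = 0.00391), SLC3A2 (1.15, 0.0336), SLC7A5 (1.61, 0.0362), SLC1A1 (2.67, 0.0371) and SLC1A4 (1.91, 0.0423), by edgeR. The other called members did not pass, namely SLC36A4 (0.27, adjusted p = 0.908), SLC38A1 (0.47, 0.690), SLC7A1 (0.56, 0.737) and SLC7A6 (−0.69, 0.670), by edgeR. Pearson's r on the log2 scale within the upper run was 0.99 for SLC1A1 (exact permutation p = 0.00278), 0.96 for SLC1A4 (0.00417), 0.99 for SLC3A2 (0.00139) and 1.00 for SLC6A9 (0.00278), with Spearman's rho of 0.94, 0.94, 1.00 and 0.94 (exact permutation p = 0.0167, 0.0167, 0.00278 and 0.0167). Without the 2 libraries farthest from the median of that run, r was 0.83, 0.67, 0.99 and 0.98 for these genes, and for SLC7A5 it was 0.00756, against 0.92 with all 6. Within the lower run SLC6A9 had r = 0.90 (exact permutation p = 0.00278) and rho = 0.94 (0.0167), whereas SLC1A1 had r = 0.55 (0.289), SLC1A4 0.45 (0.378) and SLC3A2 0.60 (0.181). Without the 2 farthest libraries of that run r was 0.88, 0.53, 0.21 and 0.94 for these 4 genes in that order. SLC38A1, whose slope over all libraries was positive, had rho = −0.94 (exact permutation p = 0.0167) and r = −0.44 (0.335) in the lower run. For SLC36A4 r was 0.17 (exact permutation p = 0.728) in the upper and 0.46 (0.357) in the lower run. For SLC7A1 r was 0.73 (exact permutation p = 0.0903) in the upper and 0.30 (0.560) in the lower run. These p-values are two-sided. Adjusted over the 20 values of r (10 members in 2 runs), the exact permutation p was 0.0139 for SLC1A1, SLC3A2 and SLC6A9 in the upper run and for SLC6A9 in the lower run, 0.0167 for SLC1A4 and 0.0694 for SLC7A5 in the upper run. No rho passed this adjustment (smallest exact permutation p = 0.0556). Of these members 9 were taken because their slopes had passed, so their values describe the same pattern, and SLC38A2 was taken as a member of high level whose slope had not.

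**Figure D4:**
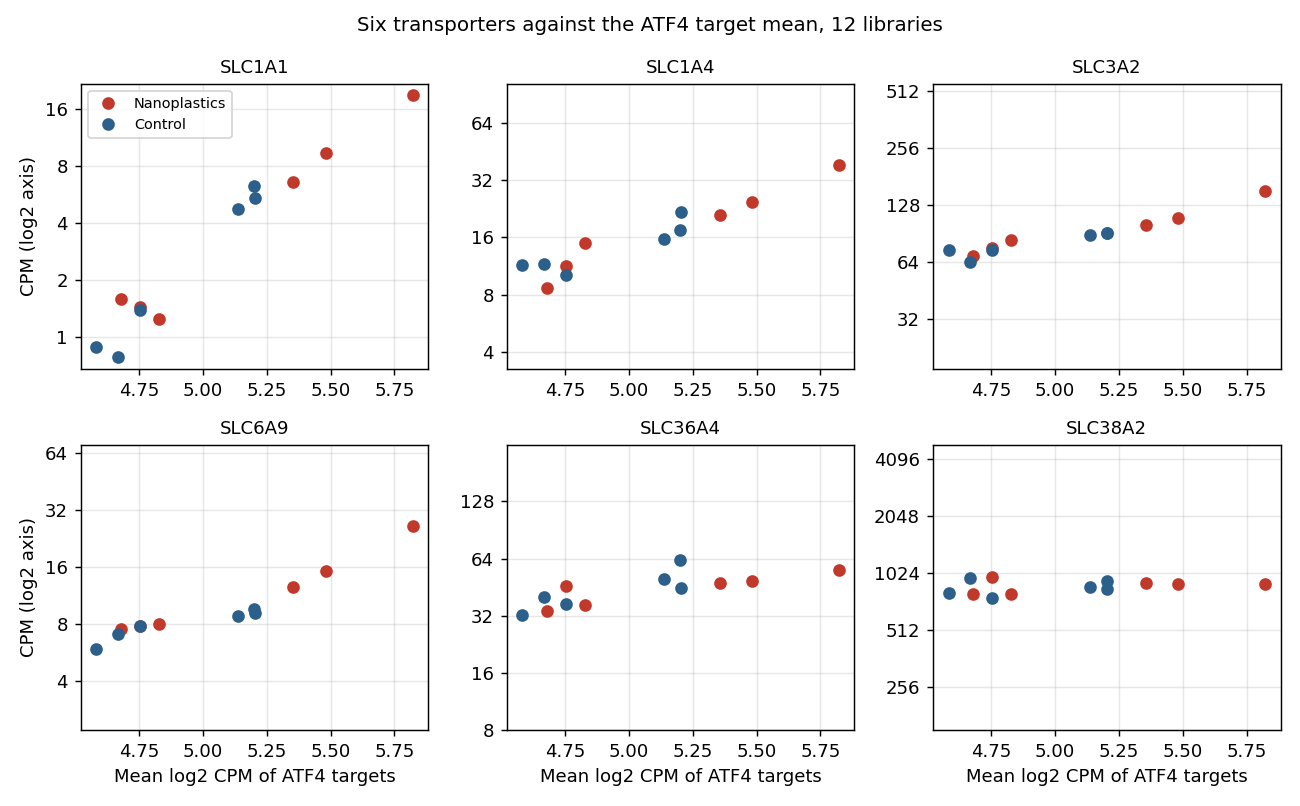
Level of 6 transporters (CPM, log2 axis spanning the same fold range in each panel) against the mean log2 CPM of ATF4 targets, with 1 point per library (red Nanoplastics, blue Control). SLC1A1, SLC1A4, SLC3A2 and SLC6A9 have higher levels in all 6 libraries of the upper run (5.14 to 5.82) than in any of the lower run (4.58 to 4.83), and SLC38A2 stays between 758 and 973 CPM.

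On the VEGFA gradient 7 of 38 members rose and 0 fell, against 7.08% of all genes that rose, 3.41% that fell and 10.5% in either direction. SLC1A1 had a slope of 1.08 (95% interval 0.84 to 1.31; adjusted p = 1.03e-05 by edgeR), and over the 12 libraries r = 0.94 with a permutation p of 1e-05, the smallest that 100000 resamples can give, and rho = 0.95 with the same p. SLC1A1 had already been called on this gradient, so r describes the same relation and is no further evidence for it. Without Control 1 and 5, the libraries farthest from the median of VEGFA, r was 0.93. SLC3A2 had a slope of 0.20 (adjusted p = 0.0032), SLC6A9 0.33 (0.00456), SLC36A4 0.17 (0.00847) and SLC1A4 0.34 (0.0103). SLC6A14, a broad carrier of neutral and basic amino acids, had 0.24 (0.0444) at 1.53 to 2.76 CPM in Nanoplastics and 1.52 to 3.18 CPM in Control libraries, and SLC7A5 had 0.16 (0.0476). The last pair did not pass with upper quartile scaling (0.0505 and 0.0546), nor without the count filter (0.0566 and 0.0506), all by edgeR. Each of the pair passed in only 3 of the 12 fits that left out 1 library. In Control libraries alone SLC1A1 was the only member that passed (adjusted p = 0.0248 by edgeR), against 1.02% of all genes. In Nanoplastics libraries alone all of these 7 passed except SLC6A14 (adjusted p = 0.122 by edgeR), against 16.4% of all genes.

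On the gradient of the oocyte marker mean 0 of 38 members passed, against 0.00813% of all genes (1 gene, by edgeR), and 4 members had an unadjusted p under 0.05, against 8.15% of all genes. These were SLC7A3 (slope 0.52) and SLC7A1 (0.33), both carriers of arginine, SLC1A5 (0.46) and SLC43A1 (−0.34). DESeq2 likewise called 0 members, against 0.374% of all genes (46). The markers themselves had slopes on this mean from −0.03 for DPPA3 to 2.95 for NLRP5. The mean thus followed the markers unequally and is a loose measure of oocyte RNA.

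With the ATF4 target mean as a covariate, a choice made after seeing the data, the log2 fold change between Nanoplastics and Control was 0.24 for SLC6A9, 0.06 for SLC3A2, 0.10 for SLC7A5, −0.04 for SLC1A4 and −0.23 for SLC1A1, against 0.68, 0.29, 0.30, 0.44 and 1.01 without it. Whether the slopes differ between treatments was tested by an interaction term. By edgeR it called 0 of 38 members on the ATF4 gradient, against 0% of all genes, and 0 on the VEGFA gradient, against 0.0894% (11 genes). At an unadjusted p under 0.05 there were 5 of 38 members and 539 of 12311 genes on the ATF4 gradient. On the VEGFA gradient there were 8 of 38 members and 1354 of 12311 genes. On both gradients the share was larger among members than among all genes, a difference that was not tested. The member of smallest p on the VEGFA gradient was SLC6A9, with a slope higher by 0.365 in Nanoplastics than in Control libraries. On the ATF4 gradient it was SLC38A11, with a difference of −2.53. Neither passed the adjustment.

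The light chains were set against their heavy chain SLC3A2 on a gradient chosen after the data were seen. On it 7 of 37 members rose and 1 fell, against 8.85% of all genes that rose, 4.25% that fell and 13.1% in either direction. Of the 31 tested genes of the ATF4 target list 22 also rose on it and 0 fell, so this gradient is not separate from that of the ATF4 target mean. SLC7A5, which exchanges leucine and other large neutral amino acids, had a slope of 0.91 (adjusted p = 4.36e-04), and over 12 libraries r = 0.89 (permutation p = 3.5e-04) and rho = 0.71 (0.0116). SLC7A6, which exchanges basic for neutral amino acids, had −0.52 (adjusted p = 0.0491), r = −0.73 (permutation p = 0.00605) and rho = −0.66 (0.0217). Adjusted over 4 light chains, the permutation p of r was 0.0014 for SLC7A5 and 0.0121 for SLC7A6. SLC7A7, of the same activity, had 0.46 (adjusted p = 0.214) and SLC7A8 0.53 (0.245), all by edgeR over all genes. For SLC7A7 r was 0.66 (permutation p = 0.0174, adjusted 0.0233) and rho 0.71 (0.0121, adjusted 0.0243), and for SLC7A8 r was 0.53 (0.0709) and rho 0.44 (0.152). The edgeR call of SLC7A5 passed in 11 and that of SLC7A6 in 2 of the 12 fits that left out 1 library, and neither passed without Nanoplastics 1. For SLC7A6 r was −0.91 within Nanoplastics and −0.18 within Control libraries, and for SLC7A8 it was 0.85 and −0.45. SLC7A5 had 0.91 and 0.74, and SLC7A7 0.59 and 0.91, in the same order. Differences between the groups were not tested. Without Nanoplastics 1 and Control 5 together r was 0.62 for SLC7A5, −0.65 for SLC7A6, 0.54 for SLC7A7 and 0.58 for SLC7A8.

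Of the 19 members below the count filter, 16 had totals of 1 to 89 counts over the 12 libraries and 3 had none, namely the glutamate carrier SLC1A6, the proline carrier SLC6A7 and the betaine and GABA carrier SLC6A12. A count of 0 allows at most 3 counts in a library, by counting error only. Scaled to the library total without TMM, that is 0.15 to 0.212 CPM, so this limit is on another scale than the levels. SLC38A3, known from mouse cumulus cells, was among the low members, at 0.0537, 0.222 and 0.561 CPM in Nanoplastics libraries and 0.0524, 0.280 and 0.558 CPM in Control libraries (lowest, median, highest). The glial glutamate carriers SLC1A2 and SLC1A3 had 1 and 13 counts in all libraries together. The serotonin carrier SLC6A4 passed the filter at 0.528, 0.951 and 1.52 CPM in Nanoplastics and 0.629, 0.895 and 1.01 CPM in Control libraries, whereas the noradrenaline carrier SLC6A2 and the dopamine carrier SLC6A3 did not.

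Other genes of amino acid handling were taken from lists, and the genes named from them are those of smallest p or those called. On the contrast of Nanoplastics with Control 0 genes of any list passed. Over all genes 50.5% had positive values and 2.10% an unadjusted p under 0.05 in edgeR's test, the shares to set beside each list. Of 19 tested amino acid carriers of other families 11 had positive values (median 0.05), with the smallest p for SLC15A3, a lysosomal histidine and peptide carrier (0.19, 95% interval −0.07 to 0.46). Of 39 tested genes of amino acid sensing 25 were positive (median 0.02). Of these, the arginine sensor CASTOR1 had −0.37 (−0.74 to 0.01). Of 36 tested amino acid enzymes 17 were positive (median −0.01), with GAMT, an enzyme of creatine synthesis, at −0.34 (−0.65 to −0.03). Of 31 tested genes of the ATF4 target list, which holds ATF4 itself, 27 were positive (median 0.22). Of the 31, 18 also rose with VEGFA past the threshold, so they are not separate observations. An unadjusted p under 0.05 was found for 3. These were CTH, the cystathionine lyase, at −0.40 (−0.69 to −0.11), the alanyl-tRNA synthetase AARS1 at 0.23 (0.06 to 0.41) and PYCR1, an enzyme of proline synthesis, at 0.34 (0.08 to 0.60).

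On the ATF4 target gradient the calls were as follows. Carriers of other families had 0 of 19 higher and 3 lower, namely the mitochondrial carriers SLC25A22 (slope −0.64, adjusted p = 0.00303) and SLC25A13 (−0.37, 0.0313) and the vesicular carrier SLC17A7 (−0.88, 0.00974), by edgeR. Of the sensing genes 4 of 39 were higher and 2 lower, against 8.78% and 4.59% of all genes, the shares that hold for each of these lists. The higher ones were folliculin, FLCN (0.42, 0.00149), its partners FNIP1 (0.70, 2.79e-04) and FNIP2 (1.11, 1.55e-04), and NPRL3 (0.49, 0.0248), by edgeR. CASTOR1 (−0.76, 0.00561) and LAMTOR2 (−0.38, 0.0336) were lower. Of the enzymes 3 of 36 were higher, namely GLDC, which cleaves glycine (0.72, 6.19e-04), GLUD1 and GPT. The 5 lower ones were the aspartate aminotransferases GOT1 (−0.43, 0.016) and GOT2 (−0.28, 0.0443), AMT, HAL and MAT2A, by edgeR. Whether these lists differ from the transporters was not tested.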

How the data were processed

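RNA of 12 samples was sequenced. The submitters' processing notes list Trim Galore 0.4.5, STAR 2.5.4b and DESeq2 and give no roles. Counting tool, strand setting, build and annotation are unknown from the sources used here. The deposited count table holds raw counts per gene. The authors' deposited contrast table holds a p-value, an adjusted p-value and a log2 fold change per gene; its 4 columns of other groups were not used, nor was the deposited log2 table.

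Of 18057 rows 74 exact copies were dropped. Each transporter symbol had 1 row. Genes were filtered by filterByExpr (minimum count 10, minimum total 15), which left 12311, scaled by TMM and tested with edgeR 4.0.16 (glmQLFTest, two-sided, Benjamini-Hochberg over all genes, threshold 0.05) in R 4.3.3. Gradient fits added 1 covariate (log2 CPM, prior count 2) to treatment, left the genes of the covariate out of counts, and were tested on simulated data. Correlations used log2(CPM + 0.1) in Python 3.11.15 with numpy 2.4.6. Alternatives were other scalings, count filters, DESeq2 1.42.0, limma-voom (limma 3.58.1), the replicate block and left-out libraries.

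The design text calls the samples independent. Within groups the lowest chi-square over its degrees of freedom was 5.62, so no pair agreed within counting noise. P-values rest on the spread between these samples, taken as independent. Batch was a term in no fit, since samples are not assigned to the 3 batches. If samples of the same batch resemble each other, the p-values may be too small. Members, lists and tests were chosen with earlier results of these data known. Members described in full were the 10 of highest mean CPM, the 6 of smallest p, the called members of each gradient and the 3 of largest and of smallest SD. The rule took 5 called members per gradient; SLC7A5 and SLC6A14 (VEGFA), SLC36A4, SLC38A1, SLC7A1 and SLC7A6 (ATF4), SLC1A5, SLC38A3, the other light chains and the called genes of other lists were named after their values were seen. The SLC3A2 gradient, the interaction, the library runs and both covariate refits of the fold change were added after seeing the data.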

Additional observations from a re-analysis of the deposited data

Results flagged for a closer look

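Each library of a group was compared with the others for the 38 tested members, in 76 groups of values, and 2 libraries stood apart by the gap to their nearest neighbour (2.63%). Chance sets apart about 1 in 20, or 3.8 here. SLC38A7, a lysosomal glutamine exporter, had 24.9 CPM in Nanoplastics 4, against 17.5 to 19.2 CPM in the other Nanoplastics libraries. SLC6A20, a proline carrier, had 3.02 CPM in Control 3, against 1.45 to 1.97 CPM in the other Control libraries.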

How the results depend on the processing

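For Nanoplastics against Control, 0 members and 0 genes passed under every scaling, filter, test, left-out library and covariate tried. Of the 17 members refitted with a library left out, the fold changes of SLC38A2 (−0.00886 to 0.0576), SLC38A1 (−0.0896 to 0.0526), SLC6A8 (−0.102 to 0.0312) and SLC38A4 (−0.305 to 0.163) changed sign; the other 21 tested members were not refitted. SLC1A1 did so with VEGFA (−0.0274) or the ATF4 target mean as a covariate (−0.233), and SLC1A4 (−0.0359) and SLC43A3 (−0.000316) with the ATF4 target mean as a covariate. Members called on the ATF4 target gradient numbered 5 to 12 with 1 library left out (511 to 2116 of all genes), 5 without Nanoplastics 1 (511), 4 without the 2 libraries farthest from its median (235), 12 in Nanoplastics (2033) and 1 in Control libraries alone (2), and 5 with the library run as a term (49). They numbered 9 when STC2 and VLDLR were dropped from the mean (1575 of all genes, 12.8%). On the VEGFA gradient they numbered 5 to 9 with 1 library left out (642 to 1866 of all genes), 12 without the 2 farthest libraries (2483), 12 in Nanoplastics (1931) and 1 in Control libraries alone (120). On the SLC3A2 gradient they numbered 3 to 10 with 1 library left out (434 to 1851 of all genes), 3 without the 2 farthest libraries (508) and 1 in Control libraries alone (6). Deviations of same-numbered libraries from their group means had r of −0.26 to 0.43 over 6 pairs. Nanoplastics 2 correlated best with Control 2, and Control 4 with Nanoplastics 4, whereas the other libraries did not match their own number best. Such few values cannot tell whether the numbers pair the samples. With the replicate block 0 members and 0 genes passed between treatments. On the ATF4 target gradient 8 members passed with it (1417 of all genes, 11.5%). The VEGFA gradient had 6 (1726, 14%) and the SLC3A2 gradient 8 (1650, 13.4%). Not every library correlated best with its own number. Depth limits members under 1 CPM. The causes were not tested.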
